A study of Mus musculus with 15 samples.

Results

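ABBV-075 (mivebresib) is a small molecule that blocks the acetyl-lysine pockets of the BET bromodomain proteins, and its effect on blood transcripts at the higher of 2 doses is described here. The comparison takes the arrays of the 5 mice given ABBV-075 at 5 mg/kg against those of the 5 mice given vehicle, 10 of the 15 arrays of the series. The remaining 5 mice were given 1 mg/kg. All were sampled 6 h after dosing, and RNA of whole blood was measured on 1 Affymetrix mouse expression array per mouse. The series looked for blood transcripts that could serve as markers of response to the compound. The sources used here do not give strain, sex, age, the composition of the vehicle or the route of dosing.

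BET proteins, among them Brd2 and Brd3, bind acetylated histone tails at promoters and enhancers. Their work is tied to that of P-TEFb, a kinase by which paused RNA polymerase II is released into elongation, and Brd2 binds hyperacetylated chromatin through which the polymerase passes. Inhibitors displace these proteins from chromatin, and genes with large enhancers, among them many genes of inflammation and of blood cell identity, are known to be sensitive. Whole blood holds red cells, platelets, neutrophils, lymphocytes and monocytes, so each value is an average over these cells, in which fewer cells of a type and less RNA per cell cannot be told apart.

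Values below are log2 intensities after quantile normalisation, with a floor of 16, which is 4.00 on the log2 scale. A difference is the mean at 5 mg/kg minus the mean with vehicle on the log2 scale, with its SE from limma. Vehicle arrays carried the blood genes Alas2 (erythroid haem synthesis; mean 13.5), Ppbp (platelets; 11.8), S100a8 (neutrophils; 10.3), Cd79a (B cells; 8.46), Cd3e (T cells; 7.60) and Hba-a1 (haemoglobin; 6.65). Log2 signal from the array's control probe sets for 18S ribosomal RNA averaged 11.2 ± 0.94 (SD, n = 5) with vehicle and 9.42 ± 0.42 at 5 mg/kg. These groups did not overlap (10.2 to 12.3 against 8.83 to 9.88; exact two-sided permutation p = 0.00794, adjusted p = 0.0397 over 5 array measures). The 3' to 5' differences of Actb and Gapdh, the median intensity and the number of probe sets above the floor gave exact permutation p values of 0.175 to 0.802. On the 1 mg/kg arrays the 18S signal was 9.74, 9.97, 9.87, 10.7 and 9.58, all but replicate 4 under the vehicle range. Differences from vehicle on those arrays were small for some genes below (0.25 for Setd2, 0.07 for Sirt1) and large for others (-1.68 for Plac8). The lower 18S signal moves with every difference between vehicle and 5 mg/kg below, and its part in them was not tested. With it as a covariate, 0 genes were higher and 0 lower at an adjusted p under 0.05, or under 0.1 (limma). At an unadjusted p under 0.05, 516 genes were then higher and 561 lower. For several lists that this setting altered, its values are given below. Without scaling between arrays the unadjusted counts were 152 and 98, and counts within most lists fell too. At an adjusted p under 0.05, 0 genes were higher and 1 lower without scaling.

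Of 12499 genes tested, 3 rose and 8 fell at an adjusted p under 0.05 (0.088% of genes; 0.024% higher and 0.064% lower; limma). These were Sertad1, H2ax and H2aw on the higher side and Ear3, Pla2g7, Clec4a3, Mpeg1, Ccr1, Dpagt1, Ptpro and Slc25a24 on the lower side. A further 25 genes, 9 higher and 16 lower, had an adjusted p from 0.05 to 0.1, so that 36 genes (0.288%) lay under 0.1. In 24 of the 25, the 5 treated and the 5 vehicle arrays did not overlap, against 2.57% of all genes (1.11% higher and 1.46% lower). The 25 were chosen by p on these same arrays, so their separation follows largely from that choice and is not separate support. An unadjusted p under 0.05 was reached by 972 genes (7.78%), of which 439 were higher (3.51%) and 533 lower (4.26%). The median difference over all genes was -0.03, and 0.10 without scaling between arrays, a shift of the whole distribution against which unscaled values must be read. None of the genes described from here on passed an adjusted p of 0.05, and they are therefore given as values.

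Among the 9 higher genes with an adjusted p from 0.05 to 0.1, several act on chromatin or on RNA. Setd2 is the methyltransferase that places trimethyl marks on lysine 36 of histone H3 behind elongating polymerase. Its log2 intensity was 5.50, 5.71, 5.63, 5.52 and 5.40 with vehicle and 6.63, 6.66, 6.90, 6.74 and 6.38 at 5 mg/kg. Every treated array was above every vehicle array, by a mean of 1.11 ± 0.20 (2.16-fold; adjusted p = 0.0545). Sirt1, an NAD-dependent deacetylase of histones and transcription factors, was at 4.34, 5.51, 4.54, 4.61 and 4.84 with vehicle and at 5.87, 5.83, 6.23, 6.14 and 6.25 at 5 mg/kg. The lowest treated array was above the highest vehicle array, replicate 2 (difference 1.30 ± 0.26; 2.45-fold; adjusted p = 0.0715). Brd2, itself a target of the compound, was at 6.90, 7.35, 6.48, 7.36 and 6.80 with vehicle and at 7.94, 8.52, 8.25, 8.55 and 7.94 at 5 mg/kg (1.26 ± 0.23; adjusted p = 0.058), without overlap and with 1.31 in its other probe set.

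Tra2a is a splicing activator that binds GA-rich exonic enhancers. It was at 5.61, 6.24, 5.50, 5.96 and 5.76 with vehicle and at 6.77, 6.58, 6.93, 6.68 and 7.12 at 5 mg/kg, a gain of 1.00 ± 0.21 (adjusted p = 0.082) with groups apart and 0.55 to 1.31 over its 5 probe sets. Fbxo33, the substrate receptor of a ubiquitin ligase, was at 5.72, 6.36, 5.79, 5.36 and 5.19 against 6.46, 6.43, 6.91, 7.01 and 7.16 (1.11 ± 0.24; adjusted p = 0.0923). Its groups were separated by a narrow gap, since vehicle replicate 2 was close to the lowest treated arrays, and its second probe set gave 0.33. Cpne1, a calcium-dependent membrane-binding protein, was at 6.88 to 7.26 with vehicle and 7.57 to 8.01 at 5 mg/kg and had the smallest gain of the 9 (0.84 ± 0.16; adjusted p = 0.0625).

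Tcf7l1, a transcriptional repressor of the Wnt pathway, was at the floor on 4 of 5 vehicle arrays and at 4.93, 4.93, 5.25, 5.73 and 5.29 at 5 mg/kg, so its value of 1.13 depends on the floor. Hsdl2, a peroxisomal short-chain dehydrogenase, was at 4.88 to 5.52 against 5.79 to 6.33 (0.95 ± 0.20; adjusted p = 0.0923). Akirin1, a nuclear cofactor, had the largest value of the 9 and the most uneven vehicle arrays. It was at 6.83, 7.48, 5.81, 4.00 and 4.00 with vehicle and at 8.36, 7.62, 7.93, 8.36 and 8.66 at 5 mg/kg (2.56 ± 0.55; adjusted p = 0.0923), and its other probe set gave 0.22.

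Of the 12 higher genes under 0.1, 11 had a RefSeq promoter, and all 11 promoters were rich in the dinucleotide CG by a ratio given below. To show this, the 100 bases before the start of 4 of them are printed 5' to 3' on the gene's own strand, from RefSeq promoters of build GRCm38.p6, with each CG in capitals. They lie at chr9:110532497-110532596 on the plus strand (Setd2), and on the minus strand at chr10:63339036-63339135 (Sirt1), chr6:49264053-49264152 (Tra2a) and chr12:59219484-59219583 (Fbxo33), and hold 15, 14, 12 and 10 CG pairs.
Setd2: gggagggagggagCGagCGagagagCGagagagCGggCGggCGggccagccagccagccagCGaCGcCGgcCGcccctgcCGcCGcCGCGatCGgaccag
Sirt1: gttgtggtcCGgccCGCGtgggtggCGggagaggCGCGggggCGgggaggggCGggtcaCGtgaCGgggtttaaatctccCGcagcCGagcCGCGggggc
Tra2a: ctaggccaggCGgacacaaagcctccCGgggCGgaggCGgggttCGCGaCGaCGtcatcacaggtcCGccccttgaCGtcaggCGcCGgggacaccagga
Fbxo33: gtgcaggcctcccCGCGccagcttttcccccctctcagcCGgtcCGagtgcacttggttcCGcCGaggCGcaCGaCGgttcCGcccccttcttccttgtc

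**Figure D1:**
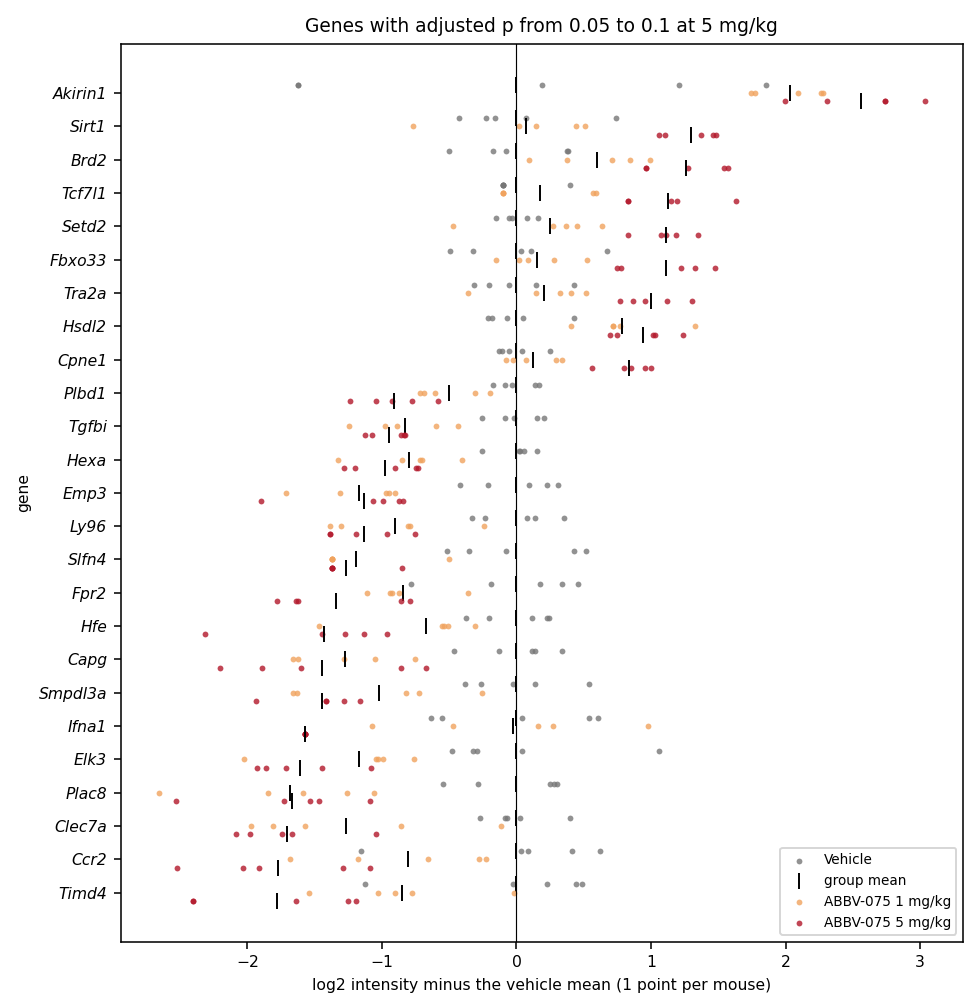
Log2 intensity minus the gene's vehicle mean (x axis) for the 25 genes (y axis) with an adjusted p from 0.05 to 0.1, 1 point per mouse in grey for vehicle, orange for 1 mg/kg and red for 5 mg/kg, with black ticks at group means. At 5 mg/kg the 9 genes at the top were higher and the 16 below were lower, and of the 25 only Ccr2 had a treated array inside the vehicle range. At 1 mg/kg the means of the 9 ran from 0.07 (Sirt1) to 2.03 (Akirin1) above vehicle.

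Genes that modify histones, place splice sites and assemble the polymerase were then counted as lists. Of 47 tested histone-modifying enzymes, 7 were higher and 0 lower at an unadjusted p under 0.05 (14.9% higher, against 3.51% of all genes). Besides Setd2 and Sirt1 these included Sirt7, a nucleolar deacetylase (0.99 ± 0.25), and Kat6a, an acetyltransferase (0.79 ± 0.23, groups apart, with -0.53 in its other probe set). The list's median was 0.02, near that of all genes, and 26 of the 47 were higher in all. Among 48 bromodomain and P-TEFb genes, 2 were higher (4.17%, near the 3.51% of all genes) and 0 lower, with a median of 0.13. The second was the P-TEFb inhibitor Hexim1, at 7.60, 7.30, 7.90, 7.79 and 7.84 with vehicle and 7.95, 9.25, 8.74, 8.32 and 8.11 at 5 mg/kg (0.79 ± 0.29). The treated arrays were all above the vehicle arrays, but ran over a wide range.

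Splicing factors formed a long list. Of 62 tested, 42 were higher, with a median of 0.23. At an unadjusted p under 0.05, 11 were higher (17.7%, against 3.51% of all genes) and 2 lower (3.23%, against 4.26%). The higher share was larger for histone genes (38.5%), MHC class I genes (23.1%) and B cell markers (19.2%). Per-array medians of the splicing factors overlapped, at -0.11 to 0.37 with vehicle and 0.07 to 0.43 at 5 mg/kg. Hnrnpa2b1, an RNA-binding protein of exon choice and RNA transport, was higher by 0.99 ± 0.22 with groups apart, but its 4 probe sets ran from -0.83 to 0.99. Clk1, the kinase that phosphorylates SR proteins, was higher by 0.95 ± 0.25 and the SR protein Srsf5 by 0.76 ± 0.22, each with 1 or more overlapping arrays. The count was 9 higher and 1 lower with the 18S signal as a covariate, 12 and 1 without the 2 vehicle arrays with the most 18S, and 3 and 0 without scaling between arrays, where 152 genes in all were higher.

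RNA helicases were near the background, with 2 of 37 higher (5.41%, against 3.51% of all genes) and 1 lower (2.7%, against 4.26%). Ddx5, a helicase of splicing and transcription, was at 10.6 ± 0.17 (SD, n = 5) against 9.79 ± 0.27, with 0.63 to 1.06 over 5 probe sets. Ddx39b, which exports spliced mRNA, was at 0.43 ± 0.19 and 0.43 to 1.74 over 3 probe sets, whereas Dhx32 was lower (-0.92 ± 0.40). Among 47 genes of RNA polymerase II, Mediator and the general factors, 33 were higher and 5 passed an unadjusted p of 0.05 (10.6%), all higher, with a median of 0.20. They included 3 TFIID subunits, Taf13 (1.43 ± 0.35), Taf5 (0.76 ± 0.25) and Taf4 (0.72 ± 0.27), none with groups fully apart.

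All 13 tested histone genes were higher, with a median of 0.35 and 5 at an unadjusted p under 0.05 (38.5%). Beyond H2ax and H2aw, H3f3a, which encodes the replacement histone H3.3, was at 5.92 ± 0.47 (SD, n = 5) against 4.89 ± 0.65, and H2az2, a variant H2A, at 8.29 ± 0.38 against 7.65 ± 0.28. Medians over the list were -0.05, 0.13, 0.04, 0.12 and -0.09 on the vehicle arrays, relative to each gene's vehicle mean, and 0.41, 0.21, 0.62, 0.49 and 0.67 at 5 mg/kg, without overlap. Cyclins and genes of replication and mitosis, by contrast, had a median of -0.11 over 47 members (0.06 without scaling). At an unadjusted p under 0.05, 3 were higher (6.38%, against 3.51% of all genes), among them the pocket protein Rbl2 (0.44 ± 0.21), and 0 lower.

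Genes that slow growth or degrade mRNA gave 3 higher and 0 lower of 41, a share of 7.32% from few members (3.51% of all genes). Tob1, an antiproliferative adaptor of the CCR4-NOT deadenylase, was at 7.35 ± 0.29 (SD, n = 5) at 5 mg/kg and 5.89 ± 0.58 with vehicle, with groups apart (1.47 ± 0.34, SE; adjusted p = 0.124). Its relative Btg2 was at 1.36 ± 0.56 with overlap, and Upf2, of nonsense-mediated decay, at 0.55 ± 0.25.

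Protein synthesis genes were mixed. Of 44 translation factors and tRNA synthetases, 4 were higher (9.09%, against 3.51% of all genes) and 1 lower (2.27%, against 4.26%). The eIF4A helicases Eif4a1 (0.64 ± 0.22; 0.61 to 1.70 over 3 probe sets) and Eif4a2 (0.76 ± 0.26) and the scaffold Eif4g2 (0.60 ± 0.20) were higher, and Eif1a was lower (-0.68 ± 0.23). Among 46 genes of the Myc network and the nucleolus, 6 were higher (13%) and 2 lower (4.35%) around a median of -0.04 (0.09 without scaling). Nop56, of box C/D ribonucleoproteins (1.26 ± 0.39), Polr1d, shared by polymerases I and III (0.67 ± 0.20), and Mxd4, a Max partner that opposes Myc (0.81 ± 0.24), were higher. Dkc1, the pseudouridine synthase, was lower with groups apart (-0.74 ± 0.19; -0.74 to -0.69 over 3 probe sets), and Myc was at 4.19 ± 0.35 (SD, n = 5) against 5.13 ± 0.93, above the floor on 2 treated arrays. Ribosomal protein genes were higher in 33 of 40 with a median of 0.16, yet 1 was higher and 1 lower at an unadjusted p under 0.05 (5.00%, under the 7.78% of all genes). Rpl37 was the lower one (-0.74 ± 0.29).

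Outside the lists, genes above the floor on all 10 arrays with groups apart included further higher ones. Cirbp, a cold-inducible RNA-binding protein, was at 7.30 ± 0.36 (SD, n = 5) against 5.35 ± 0.86, a 3.88-fold difference (adjusted p = 0.154). Cib1, a calcium- and integrin-binding protein, was at 6.99 ± 0.38 against 5.20 ± 0.55, but its other probe set gave 0.14. Cdk2ap2 (1.08 ± 0.25), an inhibitor of CDK2 activity, Aplp2 (1.05 ± 0.25, 0.17 to 1.05 over 5 probe sets), a relative of the amyloid precursor, and Sox4 (1.09 ± 0.31, -0.13 to 1.09 over 3 probe sets), a transcription factor of lymphoid progenitors, were also apart from vehicle. Genes read alike by all their probe sets, each at an unadjusted p under 0.05, included the tubulin Tubb4b (0.79 to 1.39), Bmt2 (0.90 to 1.21), the scaffold Slc9a3r1 (0.82 to 1.14) and Ankrd10 (0.91 to 1.03). The stress-inducible Sesn3 (0.91 to 1.12) and Txnip, the thioredoxin-binding protein (0.80 to 1.65), were read alike too, and both belong to the antioxidant list below.

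On the lower side were 16 genes with an adjusted p from 0.05 to 0.1, of which Plac8, Tgfbi and Ccr2 belong to the list of monocyte and macrophage markers. Clec7a, also called dectin-1, is the receptor for fungal beta-glucan on monocytes, macrophages and neutrophils. It was at 8.41, 9.08, 8.60, 8.71 and 8.61 with vehicle and at 6.94, 6.70, 7.01, 7.64 and 6.60 at 5 mg/kg. No treated array reached the vehicle range (-1.71 ± 0.32; 3.26-fold lower; adjusted p = 0.058). Plac8, a cysteine-rich protein of blood leukocytes, was at 9.53, 10.38, 10.33, 10.36 and 9.79 with vehicle and at 8.35, 7.55, 8.54, 8.99 and 8.61 at 5 mg/kg (-1.67 ± 0.32; adjusted p = 0.0611). Its groups too were apart, with treated replicate 2 the lowest. Ccr2, the receptor through which monocytes follow Ccl2, was at 7.56, 7.02, 6.97, 7.35 and 5.78 against 5.65, 4.41, 4.90, 5.02 and 5.85 (-1.77 ± 0.37; adjusted p = 0.0905). It was the 1 gene of the 25 whose groups overlapped, through vehicle replicate 5, and its 3 probe sets ran from -2.62 to 0.18.

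Fpr2, a receptor for formylated bacterial peptides and lipoxin, was at 7.19, 7.56, 7.72, 7.84 and 6.60 with vehicle and 6.52, 5.74, 5.60, 6.59 and 5.76 at 5 mg/kg. The highest treated array lay just under the lowest vehicle array (-1.34 ± 0.27; adjusted p = 0.0715). Ly96, or MD-2, the lipopolysaccharide-binding partner of Tlr4, was at 5.05 to 5.74 against 4.00 to 4.63, with 3 of 5 treated arrays above the floor (-1.13 ± 0.23; adjusted p = 0.0809). Timd4, a phosphatidylserine receptor of macrophages, was at 6.85, 6.63, 5.28, 6.89 and 6.38 against 5.21, 5.15, 4.77, 4.00 and 4.00 (-1.78 ± 0.36; adjusted p = 0.0715). Vehicle replicate 3 of Timd4 lay close to the treated arrays, and the other 4 lay well above.

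Several of the others encode enzymes or matrix and cytoskeletal proteins. Hexa, the lysosomal alpha subunit of beta-hexosaminidase, was at 7.92 to 8.33 with vehicle and 6.89 to 7.44 at 5 mg/kg (-0.97 ± 0.20; adjusted p = 0.0715). Smpdl3a, a secreted phosphodiesterase, was at 7.58 to 8.50 against 6.03 to 6.80 (-1.44 ± 0.28; adjusted p = 0.0611). Plbd1, a phospholipase B-like protein, was at 7.39 to 7.73 against 6.33 to 6.98 (-0.91 ± 0.18; adjusted p = 0.0622). The groups of all 3 were apart. Tgfbi, an extracellular matrix protein made by macrophages, was at 8.15, 7.91, 7.98, 8.20 and 7.74 against 7.17, 6.87, 7.14, 6.92 and 7.16 (-0.94 ± 0.18; adjusted p = 0.0622), and at -1.71 to -0.94 over 4 probe sets. Capg, which caps actin filaments in macrophages, was at 6.25 to 7.05 against 4.51 to 6.04 (-1.44 ± 0.29) and at -1.51 in its other probe set. The remaining 5 were Elk3, an ETS-family repressor (-1.60 ± 0.30), Hfe, the haemochromatosis protein of iron sensing (-1.43 ± 0.27), Slfn4, an interferon-induced schlafen of myeloid cells (-1.26 ± 0.25), Emp3, a membrane protein (-1.13 ± 0.24), and Ifna1. Slfn4 was above the floor on 1 treated array and Ifna1, a type I interferon, on 0, so that Ifna1 was at least 2.97-fold lower. Its probe set is of a kind that can match related transcripts.

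Most promoters of the lower genes had a low ratio of CG pairs, the exceptions among those under 0.1 being Elk3, Slfn4, Tgfbi and Pla2g7 (ratios of 0.816, 0.825, 0.731 and 0.789, defined below). To show the low kind, 4 are printed in the same form, strand convention and build as those above. They lie at chr6:129472780-129472879 (Clec7a, minus strand), chr17:17887724-17887823 (Fpr2, plus), chr9:124102083-124102182 (Ccr2, plus) and chr5:100572206-100572305 (Plac8, minus), and hold 3, 0, 1 and 2 CG pairs in capitals.
Clec7a: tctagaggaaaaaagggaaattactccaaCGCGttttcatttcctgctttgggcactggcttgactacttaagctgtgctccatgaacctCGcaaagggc
Fpr2: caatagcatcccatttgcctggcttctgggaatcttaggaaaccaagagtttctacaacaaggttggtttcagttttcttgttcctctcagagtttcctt
Ccr2: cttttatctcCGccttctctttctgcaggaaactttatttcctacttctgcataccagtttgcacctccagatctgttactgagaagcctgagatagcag
Plac8: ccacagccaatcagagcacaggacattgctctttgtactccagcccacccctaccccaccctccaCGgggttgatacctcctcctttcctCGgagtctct

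Of 29 tested monocyte and macrophage markers, 27 were lower, 19 of them at an unadjusted p under 0.05 (65.5%, against 4.26% of all genes). At that level 0 were higher. In 11 of the 29 the groups were apart on the lower side, against 1.46% of all genes, and the median was -0.88. Medians over the list were -0.01, 0.13, 0.08, 0.10 and -0.29 with vehicle and -0.72, -1.13, -0.96, -0.88 and -0.83 at 5 mg/kg. Emilin2 (-1.30 ± 0.30), an extracellular glycoprotein, Ms4a6d (-1.35 ± 0.32, with -1.34 in its other probe set), Ms4a4c (-0.88 ± 0.24), the F4/80 antigen Adgre1 (-1.22 ± 0.33) and the protease Ctss (-0.89 ± 0.24) were among them. The count of lower members was 17 without the 2 vehicle arrays with the most 18S, 7 with that signal as a covariate and 7 without scaling, with medians of -0.73 to -0.95 over 30 alternatives. Monocytes also express many members of the receptor, lysosomal and killing lists that follow.

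Phagocyte killing genes were lower in 12 of 17, with a median of -0.52. At an unadjusted p under 0.05 there were 6 (35.3%, against 4.26% of all genes), all 6 with groups apart (1.46% of all genes). Ncf1, the p47 subunit of the phagocyte oxidase, was at 6.37 ± 0.38 (SD, n = 5) against 7.31 ± 0.19, with -0.99 in its second probe set. Slc11a1, or Nramp1, which exports metal from phagosomes, was at 5.85 ± 0.30 against 6.81 ± 0.23. Per-array medians of this list also did not overlap, at -0.10 to 0.14 with vehicle and -0.83 to -0.32 at 5 mg/kg.

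Receptors by which myeloid cells sense microbes and antibody were lower in most cases. Fc and inhibitory receptors gave 19 of 23 lower (median -0.46) and 6 at an unadjusted p under 0.05 (26.1%, against 4.26% of all genes). Among the 6 were Fcgr3 (-0.62 ± 0.22), the signalling adaptor Tyrobp (-0.58 ± 0.23) and Sirpb1a. Sirpb1a was at the floor on all treated arrays and at 5.44, 6.03, 5.78, 4.00 and 4.84 with vehicle. Vehicle replicate 4 was thus at the floor too, the groups overlapped, and the difference of -1.22 ± 0.35 depends on the floor. C-type lectin receptors gave 4 of 14 (28.6%, median -0.55), with Clec4d, a partner of the Mincle receptor, at -0.80 ± 0.26 and groups apart. Toll-like and other pattern receptors gave 5 of 23 (21.7%, median -0.37). Tlr13, which senses bacterial ribosomal RNA, was at -1.28 ± 0.52 and Ly86, the partner of Cd180, at -1.08 ± 0.36. Nod1 was at -1.71 ± 0.50, above the floor on 2 treated arrays. Per-array medians of the pattern receptors did not overlap. In none of these lists was a member higher at an unadjusted p under 0.05.

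Chemokine receptors gave 4 of 13 lower (30.8%, against 4.26% of all genes), including Ccr6 (-0.89 ± 0.27, groups apart). Receptors for lipids, nucleotides and peptides gave 6 of 27 (22.2%), including the adhesion receptor Adgre4 (-1.41 ± 0.48) and the prostacyclin receptor Ptgir (-0.57 ± 0.21). Eicosanoid and phospholipid enzymes had 4 lower (18.2%) and 2 higher (9.09%, against 3.51% of all genes) of 22 (median -0.46). Cytosolic phospholipase Pla2g4a was at -0.76 ± 0.30 and the diacylglycerol kinase Dgka, abundant in T cells, at 0.63 ± 0.22. Lysosomal genes gave 8 of 34 lower (23.5%) and 0 higher. Their median of -0.16 was 0.00 with the 18S signal as a covariate, and the count was then 3. Cathepsin D (Ctsd) was at -0.85 ± 0.29. Scavenger and lipid-handling genes gave 5 of 25 lower (20%), with Pltp, a phospholipid transfer protein, at -1.11 ± 0.37 and Cd36 at -0.68 ± 0.24. Their median of -0.37 turned to 0.40 with the covariate.

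Other myeloid lists varied in the share of members lower at an unadjusted p under 0.05 (4.26% of all genes). Neutrophil markers had 5 lower (21.7%) and 1 higher (4.35%, against 3.51% of all genes) of 23 (median -0.22). Per-array medians of these markers were -0.25 to 0.24 with vehicle and -0.65, -0.96, 0.05, 0.20 and 0.17 at 5 mg/kg. Only treated replicates 1 and 2 lay under the vehicle range. With the 18S signal as a covariate, 7 were lower and 0 higher, and the median was -0.94. Dendritic cell markers had 2 lower (15.4%) and 1 higher (7.69%) of 13. Only 5 eosinophil, basophil and mast cell markers of 18 on the array could be tested, of which 2 were lower (40%). Myeloid transcription factors had 2 of 28 lower (7.14%), one of them Cebpb, the C/EBP factor of monocytes and emergency granulopoiesis, at 7.42 ± 0.29 (SD, n = 5) against 8.36 ± 0.22 (adjusted p = 0.108). Complement and coagulation genes had 3 of 20 lower (15%), with C3ar1 at -0.95 ± 0.35 and properdin (Cfp) at -1.74 ± 0.81. Their median of -0.29 turned to 0.14 with the 18S covariate. Cytokines and chemokines had 2 of 24 lower (8.33%), including Ccl9 (-1.49 ± 0.70), whose vehicle SD was 1.81. Cfp, Ccl9, Adgre1 and H2-Eb1 were all lowest with vehicle on replicate 3 and highest at 5 mg/kg on replicate 1.

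**Figure D2:**
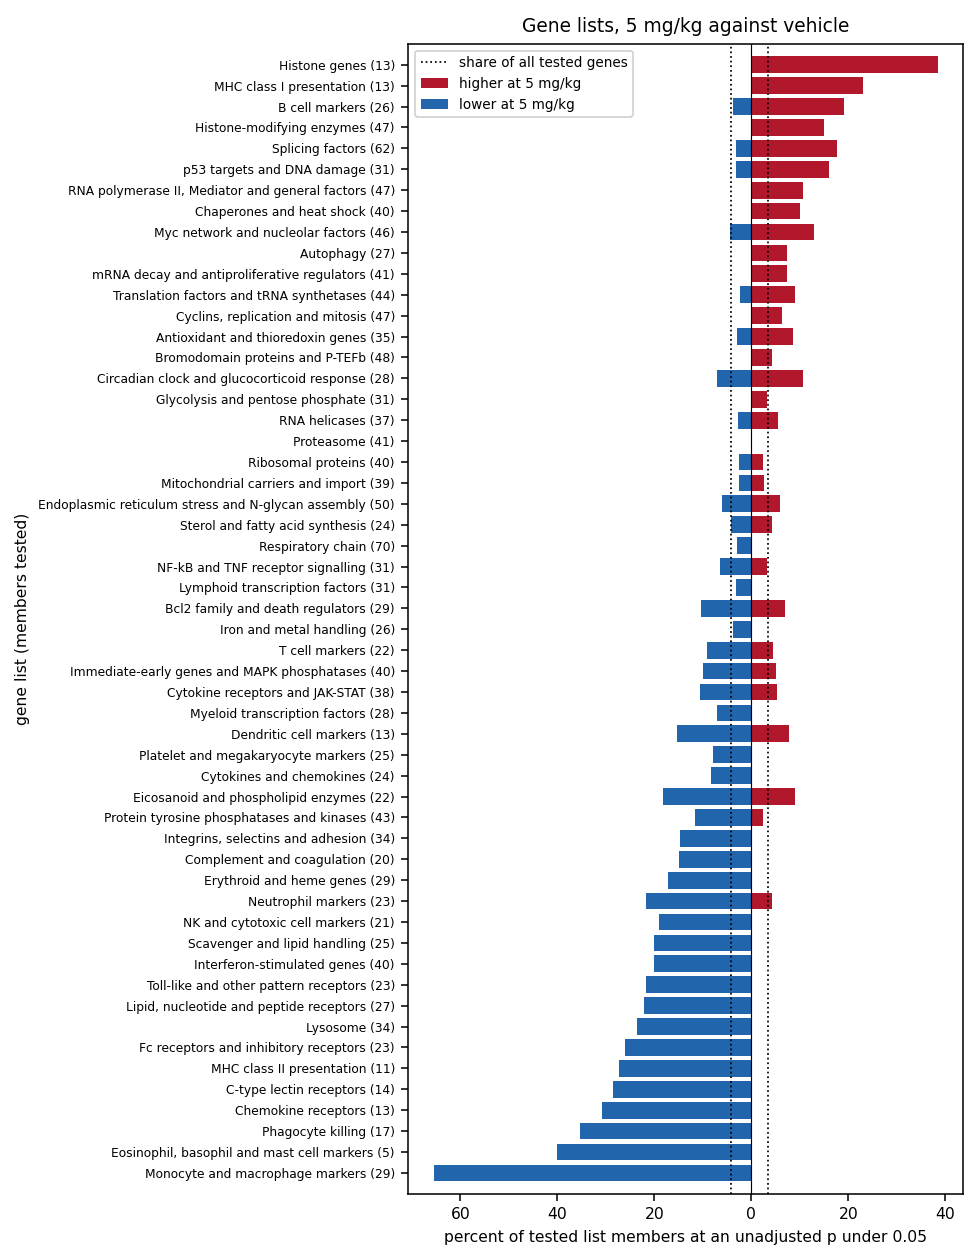
Percent of the tested members of each of 54 gene lists (y axis, number tested in brackets) at an unadjusted p under 0.05, to the right in red for higher and to the left in blue for lower at 5 mg/kg, with dotted lines at the shares of all tested genes (3.51% and 4.26%). Monocyte and macrophage markers reached 65.5% on the lower side and histone genes 38.5% on the higher side, while the proteasome had no member on either side.

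Interferon-stimulated genes were lower in 31 of 40 (median -0.31). At an unadjusted p under 0.05, 8 were lower (20%, against 4.26% of all genes) and 0 higher. Ifitm3, an antiviral membrane protein that is also counted among the monocyte markers, was at 10.7 ± 0.093 (SD, n = 5) with vehicle and 9.78 ± 0.27 at 5 mg/kg. No treated array reached the narrow vehicle range. The count of lower members was 6 with the 18S covariate, 8 without the 2 arrays of highest 18S signal and 1 without scaling. Of all genes, 561, 557 and 98 were lower in these settings. Integrins, selectins and adhesion genes were lower in 29 of 34 (median -0.23, and -0.53 with the covariate). The 5 at an unadjusted p under 0.05 (14.7%) included Itga6 (-0.56 ± 0.22), Itga4 (-0.49 ± 0.21) and the dendritic and monocyte integrin Itgax (-0.88 ± 0.33).

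Lymphocyte lists were mixed. B cell markers had 5 higher (19.2%, against 3.51% of all genes) and 1 lower (3.85%, against 4.26%) of 26 (median 0.24). Those named were led by Ms4a1, or CD20, at 10.1 ± 0.38 (SD, n = 5) against 8.87 ± 0.69 (1.23 ± 0.37, SE, and 1.11 in its other probe set). The BAFF receptor Tnfrsf13c was at 0.73 ± 0.31. Per-array medians of the B cell list ran from -0.49 to 0.74 with vehicle and from -0.07 to 0.80 at 5 mg/kg, so the groups overlapped widely and vehicle replicate 2 was exceeded by 1 treated array. T cell markers had 1 higher (4.55%), Cd3g (1.08 ± 0.35), and 2 lower (9.09%) of 22. Lymphoid transcription factors had 0 higher and 1 lower of 31 (3.23%, under the background). NK and cytotoxic cell markers had 4 of 21 lower (19%) and 0 higher (median -0.32). The 4 included granzyme K (Gzmk, -0.73 ± 0.28) and the granzyme inhibitor Serpinb9 (-0.97 ± 0.42). Lower members numbered 9 with the 18S covariate (median -0.83) and 1 without scaling, where 561 and 98 of all genes were lower. Cd244a, an NK receptor also found on monocytes, was at -0.82 ± 0.26.

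Both lists of antigen presentation had medians above 0. MHC class I genes were higher in 10 of 13 (median 0.19). At an unadjusted p under 0.05, 3 were higher (23.1%, against 3.51% of all genes), and 5 with the 18S covariate. H2-K1 was at 11.5 ± 0.40 (SD, n = 5) against 10.6 ± 0.32, with 0.94 to 1.81 over 4 probe sets. The immunoproteasome subunit Psmb9 was at 1.21 ± 0.41. H2-D1 was at 2.16 ± 0.80, but its 8 probe sets ran from -2.09 to 2.41, and these near-identical genes cannot be read apart with certainty. MHC class II genes were higher in 7 of 11 (median 0.18). The 3 at an unadjusted p under 0.05, H2-Eb1 (-1.39 ± 0.63), H2-Ob (-0.86 ± 0.37) and Ctss, were lower (27.3%, against 4.26% of all genes). Those 3 numbered 0 with the 18S covariate and 0 without scaling.

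Platelet and red cell genes were mostly lower, and the platelet difference was larger with the 18S signal as a covariate. Of 25 platelet and megakaryocyte markers 23 were lower (92.0%, against 53.4% of all genes; median -0.22). At an unadjusted p under 0.05, 2 were lower (8%, against 4.26%), 1 of them the transcription factor Nfe2 (-0.91 ± 0.21; adjusted p = 0.124). Per-array medians of the platelet list ran from -0.92 to 0.37 with vehicle, vehicle replicate 1 being the lowest of the 10 arrays, and from -0.43 to 0.09 at 5 mg/kg. With the 18S signal as a covariate 14 of the 25 were lower at that level and the median was -0.96. Without the 2 vehicle arrays with the most 18S, 10 were lower. Of all genes, 561 of 12499 and 557 of 12208 were lower in these settings. Erythroid and haem genes were lower in 23 of 29, 5 at an unadjusted p under 0.05 (17.2%), and 2 at that level with the covariate. The 5 included the carbonic anhydrases Car1 (-0.85 ± 0.27) and Car2 (-0.69 ± 0.32). Iron and metal handling had 1 of 26 lower (3.85%), Slc11a1.

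**Figure D3:**
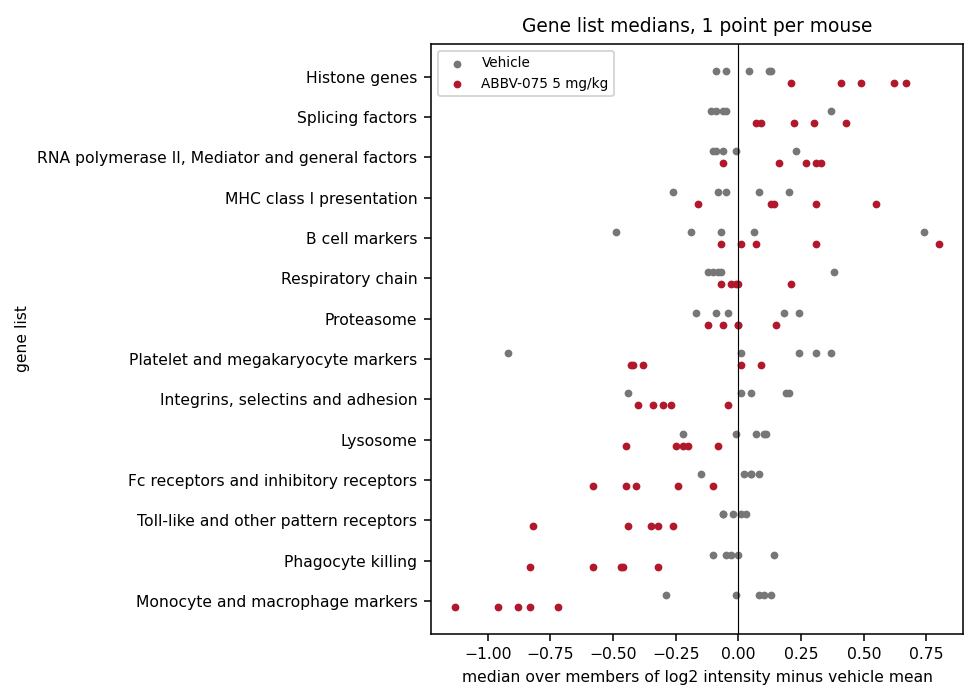
Median over the members of 14 gene lists (y axis) of log2 intensity minus the gene's vehicle mean (x axis, log2 units), 1 point per mouse in grey for vehicle and red for 5 mg/kg. Points of the 2 groups were apart for the monocyte, phagocyte killing, pattern receptor and histone lists and overlapped for the rest, including the platelet list, where 1 vehicle mouse lay at -0.92.

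Signalling lists moved in both directions. Cytokine receptors and JAK-STAT genes had 2 higher (5.26%, against 3.51% of all genes) and 4 lower (10.5%, against 4.26%) of 38. The interferon receptor chain Ifnar1 was at 0.78 ± 0.29, with -0.02 in its other probe set. Stat5a was at 0.62 ± 0.25, with 0.08 in its other probe set, and Il13ra1 at -0.93 ± 0.37. NF-kB and TNF receptor genes had 1 higher (3.23%) and 2 lower (6.45%) of 31. Bcl3, a nuclear IkB protein, was at 4.21 ± 0.28 (SD, n = 5) against 5.07 ± 0.064 and above the floor on 3 treated arrays. Tyrosine phosphatases and kinases had 1 higher (2.33%) and 5 lower (11.6%) of 43. Pik3cg, the leukocyte PI3-kinase gamma (-0.56 ± 0.18, groups apart), Ptpn22 (-0.96 ± 0.31) and Tsc2 (-0.71 ± 0.26) were on the lower side. Immediate-early genes and MAPK phosphatases had 2 higher (5%) and 4 lower (10%) of 40, with Ier2 at 0.70 ± 0.23 and Dusp6, an ERK phosphatase, at -1.28 ± 0.36. Ezrin (Ezr), which links the membrane to actin, was higher with groups apart (0.91 ± 0.24, and 0.68 in its other probe set).

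Among stress and survival genes, p53 targets had 5 higher (16.1%, against 3.51% of all genes) and 1 lower (3.23%, against 4.26%) of 31 (median 0.06). Sesn1 (0.59 ± 0.23; 0.43 to 1.55 over 4 probe sets), Trp53inp1 (0.61 ± 0.23) and Btg2 were higher, and Sesn2, a sestrin of the stress response, was lower (-0.88 ± 0.31). Chaperones had 4 higher (10%) and 0 lower of 40, with Dnajb1 at 0.53 ± 0.20 and Fkbp4 at 0.69 ± 0.29, the latter with -0.12 in another probe set. Genes of endoplasmic reticulum stress and N-glycan assembly had 3 higher (6%) and 3 lower (6%) of 50. Atf4, the transcription factor of the integrated stress response, was at 1.20 ± 0.41, Dpm2 at 1.03 ± 0.38 and Alg9 at -0.94 ± 0.24, with 0.21 in the other probe set of Alg9. The Bcl2 family and death regulators had 2 higher (6.9%) and 3 lower (10.3%) of 29. The lower ones were Bak1 (-0.74 ± 0.29), Casp8 (-0.48 ± 0.20) and Bcl2 (-0.62 ± 0.29, with probe sets from -0.62 to 0.13). Antioxidant genes had 3 higher (8.57%) and 1 lower (2.86%) of 35. These were Sesn3, Txnip and Sesn1 on the higher side and Sesn2 on the lower side, genes already given above, so the lists share members. Autophagy genes had 2 higher (7.41%) and 0 lower of 27, the kinase Ulk2 (1.07 ± 0.31) and its partner Rb1cc1 (0.88 ± 0.38).

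Lists of energy metabolism and protein breakdown held few members past an unadjusted p of 0.05, but several held more with the 18S signal as a covariate. Of 41 proteasome subunits, 0 passed an unadjusted p of 0.05 in either direction, with a median of 0.00. Respiratory chain genes had 0 higher and 2 lower of 70 (2.86%), Ndufs8 (-0.69 ± 0.29, with probe sets from -0.69 to 0.12) and Ndufb7 (-0.46 ± 0.21). Glycolysis had 1 higher of 31 (3.23%, against 3.51% of all genes), aldolase A (Aldoa, 0.49 ± 0.21). Mitochondrial carriers and import had 1 higher, the oxoglutarate carrier Slc25a11 (1.20 ± 0.52), and 1 lower of 39 (2.56% each). Sterol and fatty acid synthesis had 1 higher, Fasn (1.14 ± 0.49), and 1 lower, Nsdhl (-0.55 ± 0.25), of 24 (4.17% each). Circadian and glucocorticoid response genes had 3 higher (10.7%) and 2 lower (7.14%, against 4.26% of all genes) of 28, the lower ones being Rora (-0.58 ± 0.18) and Zbtb16 (-0.77 ± 0.33). With the covariate, 11 of 70 respiratory chain genes were higher and 2 lower (median 0.38), 8 of 24 sterol and fatty acid genes (median 1.24), 5 of 39 mitochondrial carrier and import genes, with 2 lower (median 0.31), and 3 of 41 proteasome subunits (median 0.35). Of all 12499 genes, 516 were higher and 561 lower with the covariate. The 5 circadian and glucocorticoid members past the level numbered 0 there. A share near the background does not show that these genes were unaltered, since the median SE of a difference was 0.29.

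A second reading of the same RNA is given by genes with several probe sets. Of 4637 genes with 2 or more tested probe sets, 44 were higher and 23 lower at an unadjusted p under 0.05 in every probe set. Of the 380 such genes whose brightest probe set passed that level, 263 (69.2%) had all probe sets of one sign, against 51.2% of all genes with 2 or more. Where probe sets disagreed, as for H2-D1, Hnrnpa2b1 and Ccr2, the value rests on the brightest one. Genes printed above without their other probe sets were not all read alike. Both signs occurred for Eif4g2 (-0.21 to 0.82), Itga4 (-0.49 to 0.13), Rora (-0.58 to 0.08), Ndufb7 (-0.46 to 0.01) and Upf2 (-0.08 to 0.55). Polr1d ran from 0.03 to 0.67, H2az2 from 0.13 to 0.64 and Hsdl2 from 0.20 to 0.95.

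The 1 mg/kg arrays share the vehicle arrays with this comparison, so their values are given only side by side. Against vehicle, Setd2 was at 0.25 at 1 mg/kg and 1.11 at 5 mg/kg, Sirt1 at 0.07 and 1.30, Tra2a at 0.21 and 1.00, Cpne1 at 0.12 and 0.84, Fbxo33 at 0.15 and 1.11, Tcf7l1 at 0.17 and 1.13, Brd2 at 0.60 and 1.26, Hsdl2 at 0.79 and 0.95 and Akirin1 at 2.03 and 2.56. Plac8 was at -1.68 and -1.67, Emp3 at -1.17 and -1.13, Slfn4 at -1.19 and -1.26, Capg at -1.27 and -1.44, Tgfbi at -0.83 and -0.94, Hexa at -0.80 and -0.97, Ly96 at -0.90 and -1.13 and Clec7a at -1.27 and -1.71. Smpdl3a was at -1.02 and -1.44, Elk3 at -1.17 and -1.60, Fpr2 at -0.84 and -1.34, Plbd1 at -0.50 and -0.91, Hfe at -0.67 and -1.43, Timd4 at -0.85 and -1.78, Ccr2 at -0.80 and -1.77 and Ifna1 at -0.03 and -1.57. Tested directly between the doses, 0 of 12499 genes passed an adjusted p of 0.05 (limma; smallest adjusted p = 0.453; 658 higher and 329 lower at 5 mg/kg at an unadjusted p under 0.05). For the 9 higher genes, 7 had an unadjusted p under 0.05 between the doses, and for the 16 lower genes 5, none past the adjusted threshold. The doses therefore were not shown to differ for any single gene.

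The CG content seen in the printed promoters was measured for all tested genes with a RefSeq promoter, 9981 in number, over 300 bases from 250 before to 50 after the first listed start. The ratio of observed to expected CG pairs was above 0.6 in 63.7% of them. Genes at an unadjusted p under 0.05 with groups apart had such promoters in 98 of 111 higher cases (88.3%) and 48 of 126 lower cases (38.1%). Median ratios were 0.812 for the higher genes, 0.423 for the lower genes and 0.723 for all. Among genes with an adjusted p under 0.1, 11 of 11 higher genes and 4 of 20 lower genes exceeded 0.6. With all genes at an unadjusted p under 0.05, overlapping or not, the share was 81.9% of 376 higher genes and 46.9% of 422 lower genes. Over 30 alternatives that share ran from 76.5% to 86.2% on the higher side and from 33.3% to 51.3% on the lower side.

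Read the other way, 6355 genes with a ratio above 0.6 had a median difference of 0.00, with 4.85% higher and 3.12% lower at an unadjusted p under 0.05. The 3626 genes at or under 0.6 had a median of -0.07, with 1.88% higher and 6.18% lower. Their mean log2 levels differed somewhat as well, with medians of 5.82 and 5.39, and the part of level or of cell type in the CG difference was not tested. Letter motifs were searched on both strands of the same windows. GAGGAAGT is a core bound by the myeloid factor PU.1. It was in 11 of 126 lower promoters (8.73%), 1 of 111 higher ones (0.901%) and 3.02% of all. Repeats of GAAA spaced by any 2 bases, the form bound by interferon regulatory factors, were in 7.94%, 0.901% and 3.12%, TGANTCA, of AP-1, in 11.1%, 3.6% and 5.83%, and TATAAA in 15.1%, 6.31% and 8.77%. GGGCGGGG, a GC box that itself holds a CG pair, was in 19% of the lower promoters, 49.5% of the higher ones and 30.5% of all, and CCAAT in 27.8%, 45.0% and 37.9%. A match describes the letters in the window and not a bound site.

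**Figure D4:**
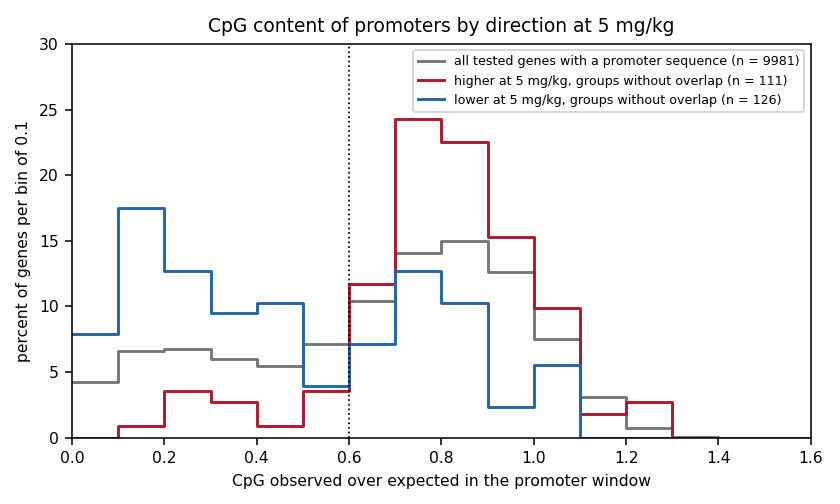
Distribution of the ratio of observed to expected CG pairs in 300-base promoter windows (x axis, bins of 0.1; y axis, percent of genes) for all 9981 tested genes with a promoter (grey) and for genes at an unadjusted p under 0.05 with groups apart, 111 higher (red) and 126 lower (blue) at 5 mg/kg, with a dotted line at 0.6. Most higher genes lay to the right of the line (88.3%) and most lower genes to the left of it.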

How the data were processed

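Total RNA of mouse whole blood was extracted with Qiazol and RNeasy columns and labelled with an Affymetrix 3' IVT kit, per the labels' protocols. The deposited values are probe set intensities on a linear scale, some negative, as read from the values. The authors' software, summarisation and normalisation are not given in the sources used here. From them, all 15 arrays were quantile-normalised without the 64 control probe sets, floored at 16 and put on the log2 scale. Probe sets of several genes (932) or none listed (9160) were left unnamed, and the rest covered 18193 genes, named from GEO's platform annotation, which can be old. A gene was its probe set of highest mean and was tested if above the floor on at least 5 arrays (12499 genes). Of all values 52.7% lay at the floor, where no level is measured, so folds of dim genes are understated. Probe sets read mainly the 3' end, and some match related transcripts.

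The test was limma (version 3.58.1, R 4.3.3; lmFit, then eBayes, group means over all 15 arrays, two-sided, 12 residual and 3.904 prior degrees of freedom), with Benjamini-Hochberg adjustment over the tested genes, and the scripts were tested on simulated data. Depth does not apply to arrays, and 5 arrays per group limit the precision (median SE 0.29, median SD within a group 0.39 with vehicle and 0.40 at 5 mg/kg). Replicates are separate mice, per the labels. Same-numbered vehicle and treated arrays deviated together with correlations of -0.28 to 0.36 over genes, so the numbers were not taken as pairs.

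Genes named are those with an adjusted p under 0.1, the 4 lowest p values of each list among those under an unadjusted 0.05, the 15 most extreme in each direction with groups apart and above the floor on all 10 arrays, and the 10 per direction read alike by all probe sets, less some left out after their values were seen. Hexim1 and Myc were added. The comparison, the 55 gene lists (2025 genes, 1830 on the array, 1612 tested, 8 matched through an older symbol) and the tests were chosen with earlier results of these data known, and lists received no test. The result of 1 list is not reported here. Array measures were compared by exact permutation over all 252 assignments of 5 and 5 arrays. Alternatives covered scaling, floor, filter, gene summary, variance model, 18S signal and single arrays.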

Additional observations from a re-analysis of the deposited data

Results flagged for a closer look

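Among the values given above, in 286 groups of 5 arrays examined, 17 held 1 array that stood apart from the other 4 by more than 0.71 of the group's range, a gap that chance gives in about 1 group in 20. The values are log2 intensities. With vehicle, replicate 2 was the highest for Eif4a2 (9.37, the others 8.54 or less), Ankrd10 (6.82, others 5.97 or less) and Cd3g (7.84, others 7.12 or less), replicate 1 for Slc9a3r1 (8.02, others 7.65 or less) and replicate 5 for Tcf7l1 (4.50, others at the floor). Replicate 5 was the lowest with vehicle for Dusp6 (6.07, others 6.76 or more) and Il13ra1 (5.18, others 6.11 or more), and replicate 3 for H2-Eb1 (6.88, others 9.03 or more). At 5 mg/kg, replicate 2 was the lowest for Emp3 (5.93) and Ulk2 (5.29) and the highest for Rpl37 (8.19), and replicate 5 was the highest for Slfn4 (4.52) and Myc (4.80) and the lowest for Itga6 (8.15). Replicate 4 was the lowest for Dhx32 (4.00) and the highest for Nod1 (5.12), and replicate 3 the highest for Aldoa (9.35).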

How the results depend on the processing

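The number of genes past the threshold depended on the processing, and the direction of the named genes rarely did. At an adjusted p under 0.05 (limma; 3 higher and 8 lower as reported), the counts were 0 and 1 without scaling between arrays (0 and 1 under 0.1; 250 genes at an unadjusted p under 0.05) and 0 and 0 with the 18S signal as a covariate (0 and 0 under 0.1; 1077 unadjusted). They were 2 and 1 without the 2 vehicle arrays with the most 18S (2 and 5 under 0.1), 4 and 14 with the 10 arrays normalised and fitted alone (33 and 54), 21 and 24 with a floor of 32 (33 and 39), and 2 and 8 with a floor of 8 (5 and 11). They were 11 and 11 when 1 array above the floor sufficed for testing (32 and 34), 11 and 22 when probe sets of a gene were averaged (33 and 37), 10 and 22 with each probe set on its own (29 and 39), and 27 and 38 with array weights (60 and 72). With the replicate number as a block they were 3 and 6 (5 and 11 under 0.1), a block that the data do not bear out, since only vehicle replicate 3 correlated best with the treated array of its own number. Omitting each of the 15 arrays, one at a time, gave 2 to 8 higher and 6 to 14 lower, and 2 to 24 and 8 to 35 under 0.1. Counts rose without 1 mg/kg replicate 1 (6 and 13) and 1 mg/kg replicate 5 (8 and 14), arrays outside the comparison. Higher genes under 0.1 numbered 2 without 5 mg/kg replicate 3 and 3 without vehicle replicate 3, vehicle replicate 5 or 5 mg/kg replicate 4. The cause of these shifts was not tested. Of 4145 values of 139 named genes, 4015 stayed on their side of the threshold and 128 crossed to an adjusted p under 0.05. The other 2 reversed, Ndufs8 (0.12) and Bcl2 (0.13) without probe sets ending in _x_at or _s_at. All 139 had an adjusted p of 0.05 or more as reported, so none could lose the threshold, and the genes that passed it are not among them. Most were named for small p values in these data, which in part fixes their direction. Setd2 passed in 8 of 30 alternatives and Clec7a in 9. Lists that the 18S covariate altered included platelet markers (14 of 25 lower, from 2), respiratory chain genes (11 of 70 higher, from 0), sterol and fatty acid synthesis (8 of 24 higher, from 1), NK markers (9 of 21 lower, from 4) and monocyte markers (7 of 29 lower, from 19). Scavenger and lipid-handling genes turned from 5 lower to 4 higher of 25, and histone genes had 3 of 13 higher, from 5. Of all genes, 516 were higher with the covariate, from 439, and 561 lower, from 533.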

Other observations

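Probe sets with no single gene listed were also fitted, 4537 of them bright enough to test. Of these, 2 were higher and 3 lower at an adjusted p under 0.05 (limma, adjusted over all tested probe sets), and they are not named here.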
